A study of Mus musculus with 39 samples.

Results

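The comparison described here is that of 5XFAD with wild type (WT) mice under normoxia (NX) in the cohort of males harvested at 8 months of age. Its members were 10 of the 39 RNA-seq libraries of the series, 5 labelled male WT NX and 5 labelled male 5XFAD NX, and the 14834 of 54532 listed genes with a level above 1 CPM (counts scaled to a common library total) in at least 3 of these libraries. C57BL/6J females were bred with 5XFAD males of a B6SJL background, and no further strain is given for the WT mice sequenced. 5XFAD mice carry mutant human amyloid precursor protein and presenilin transgenes. A Thy1 promoter drives these in neurons, so that no transgene is aimed at the microglia measured here. From 4 months of age both groups breathed 21% oxygen throughout, with the noise and airflow that the mice under chronic intermittent hypoxia (CIH) of the same cohort received. Under CIH, from the same age, inspired oxygen alternated between 21% and a low level on which the sources differ. Males of both genotypes under CIH, and females of both genotypes under NX harvested at 10 months, are set beside this comparison. CD11b+ cells were taken from the cerebrum with magnetic beads after papain digestion and a Percoll step, and the mRNA of these isolates was sequenced. CD11b is shared by microglia, border macrophages, monocytes and neutrophils, so each library is a bulk measure of whatever the beads held. In such a measure, fewer cells of a type and less RNA per cell cannot be told apart.

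Microglia are the resident macrophages of the brain. In plaque-bearing mice the cells at the plaques are known to take on a state called disease-associated microglia (DAM), in which genes for lipid handling, lysosomal digestion and phagocytosis are raised and genes of the surveying, homeostatic state are lowered. The receptor TREM2 with its adaptor TYROBP is needed for the full state, and interferon-responsive and antigen-presenting states are known beside it.

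Total counts were 13457293 to 23095627 a library, so that 1 CPM stood for 13.5 to 23.1 reads. The 12 microglia identity genes, which include Cx3cr1, Csf1r and Aif1, together held 39902 to 42015 CPM in WT NX and 30289 to 42565 CPM in 5XFAD NX. The libraries 5XFAD NX 4 and 5 stood apart from the other 3 of their group. Their PC2 scores were 80.2 and 78.8 against -32.8, -32.0 and -24.7, and ribosomal protein genes took 3.05% and 2.89% of their counts against 5.61%, 5.81% and 5.71%, while WT NX lay between 2.40% and 3.32%. The nuclear RNA Malat1 was at 194, 145, 138, 1638 and 1427 CPM in 5XFAD NX 1 to 5 and at 318 to 921 CPM in WT NX, with a log2FC of 0.45 ± 0.67 that became -1.71 without libraries 4 and 5. The count-weighted gene length was 5520 and 5539 bases in libraries 4 and 5, above the 4293 to 4427 bases of 1 to 3 and the 4809 to 5280 bases of WT NX. Of the 12, P2ry12 and Tmem119 were called lower and Trem2 higher in 5XFAD NX, and Aif1, the IBA1 gene, was not called (log2FC -0.21 ± 0.24). The part of this split in the results was not tested, and most counts of calls are therefore also given without both libraries. The labels number the libraries but do not say how animals were assigned, so p-values measure the spread between these libraries.

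**Figure D1:**
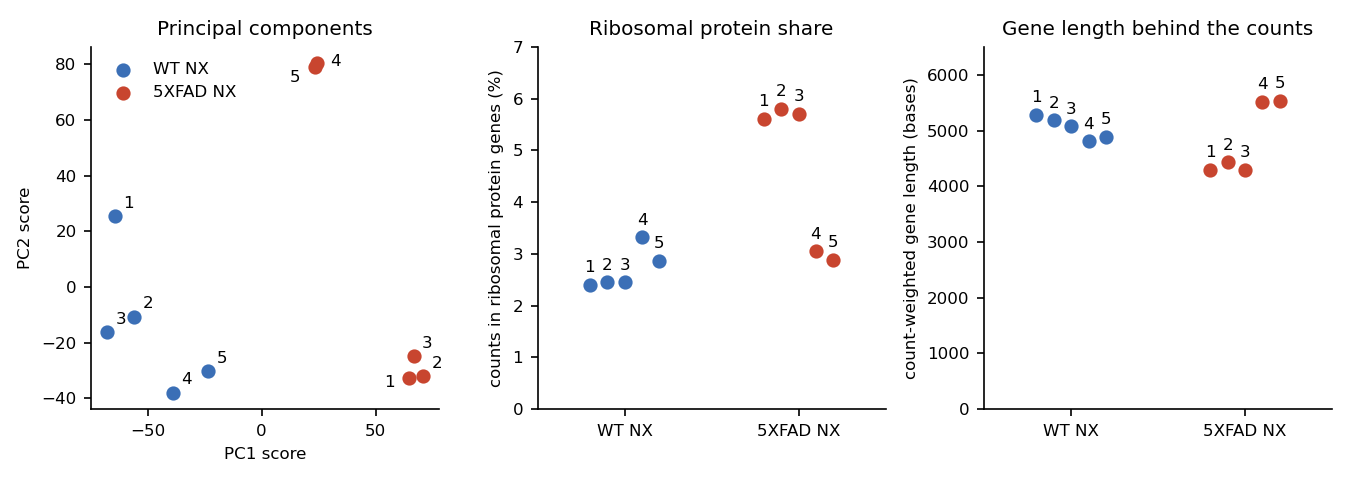
Principal component scores (PC1 35.3% and PC2 23% of the variance of log2 CPM), share of counts in ribosomal protein genes (%) and count-weighted gene length (bases) of the 10 libraries, each a point with its replicate number. 5XFAD NX 4 and 5 sit at PC2 scores of 80.2 and 78.8, apart from 5XFAD NX 1 to 3, and at ribosomal shares inside or near the WT NX range of 2.40% to 3.32%.

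The question of this comparison is what amyloid pathology alone, without hypoxia, changes in the isolated cells. Differentially expressed genes (DEGs) were those with a false discovery rate (FDR, the Benjamini-Hochberg adjusted p of edgeR's quasi-likelihood test) below 0.05 and an absolute log2 fold change (log2FC, 5XFAD NX over WT NX) above 1. At an FDR below 0.05 alone 2638 genes differed (17.8%), and 4435 did at an unadjusted p below 0.05 (29.9%). There were 1224 DEGs, 8.25% of the genes tested, of which 881 were higher (5.94%) and 343 lower (2.31%) in 5XFAD. The 5 libraries of one group did not overlap those of the other in 1000 of the 1224 DEGs (81.7%) and in 2376 of all genes tested (16%). Without 5XFAD NX 4 and 5 there were 1692 DEGs of 14299 genes (1138 higher and 554 lower), and 1030 of the 1224 were among them. With library sizes alone in place of TMM scaling, which moved the median log2FC of all genes from 0.02 to -0.16, the split was 622 higher and 601 lower.

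The largest rises lay in genes that were close to silent in WT NX. Gfap, the intermediate filament of astrocytes, had 0.608, 0, 0.163, 0.536 and 0.572 CPM in WT NX 1 to 5 and 234, 746, 522, 192 and 236 CPM in 5XFAD NX 1 to 5 (log2FC 10.01 ± 0.62). Gpnmb, a lysosomal glycoprotein of lipid-laden macrophages, went from 2.23, 1.01, 0.325, 1.61 and 2.06 CPM to 570.3, 443, 705, 452 and 443 CPM (log2FC 8.52 ± 0.41). Each 5XFAD library was at least 2 orders of magnitude above every WT library for both genes. The synaptic protein gene Lgi2 (0 to 0.659 CPM in WT NX, 35.8 to 93.9 CPM in 5XFAD NX, log2FC 8.31 ± 0.55) and the Wnt antagonist gene Dkk2 (0 to 0.458 and 23.7 to 55.6 CPM, log2FC 7.95 ± 0.58) followed the same pattern. So did Mamdc2 (0 to 1.79 and 154 to 199 CPM), Baiap2l2 (0.488 to 3.04 and 159 to 395 CPM), the zinc transporter gene Tmem163 (0 to 0.629 and 20.3 to 49.3 CPM) and the cation channel gene Trpm1 (0 to 0.515 and 33.6 to 48.7 CPM). In none of these genes did a WT library reach the lowest 5XFAD library. Since the WT values rest on few reads, the exact size of these folds is uncertain.

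The lowest p-values among the genes that rose belonged to Csf1, the cytokine ligand of the microglial survival receptor CSF1R, to Lpl, Hpse, Itgax and Igf1. Csf1 was at 29.3, 32.3, 28.2, 27.3 and 30.7 CPM in WT NX 1 to 5 and 569, 555, 597, 570.0 and 511 CPM in 5XFAD NX 1 to 5 (log2FC 4.24 ± 0.11, FDR = 1.85e-10). Hpse, the heparan sulfate cleaving enzyme, rose from a range of 2.15 to 3.22 CPM in WT NX to one of 95.1 to 121 CPM in 5XFAD NX (log2FC 5.32 ± 0.15). The ranges within each group were narrow in both genes, and libraries 4 and 5 were level with 1 to 3.

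Falls were smaller. Where a pair of ranges stands in brackets, that of WT NX comes before and that of 5XFAD NX after the word against. Ptger3, a prostaglandin E2 receptor gene, was at 12.3, 9.35, 7.96, 6.23 and 6.81 CPM in WT NX and 1.75, 0.539, 0.539, 1.40 and 0.848 CPM in 5XFAD NX (log2FC -3.04 ± 0.38), and the groups did not overlap. Among the genes that fell with the lowest p were Sema4b, a semaphorin (64.3 to 77.2 against 13.4 to 18.03 CPM, log2FC -2.12 ± 0.12), the organic anion transporter gene Slco4a1 (90.7 to 102 against 17.6 to 27.2 CPM, log2FC -2.0 ± 0.13), Tmem44 (70.3 to 95.1 against 13.1 to 20.9 CPM, log2FC -2.15 ± 0.15), the galactosyltransferase gene Ggta1 (log2FC -1.52 ± 0.11) and the vesicle trafficking gene Lrba (log2FC -1.45 ± 0.11). Each of these genes was lower in all 5 5XFAD libraries than in any WT library. Hsf2bp (log2FC -2.58 ± 0.24), Ccdc162 (log2FC -2.27 ± 0.25) and the lectin receptor gene Cd209a (log2FC -2.15 ± 0.20) were also among the largest falls. Predicted and numbered genes took 5 of the 20 places among the largest changes and are counted but not described.

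**Figure D2:**
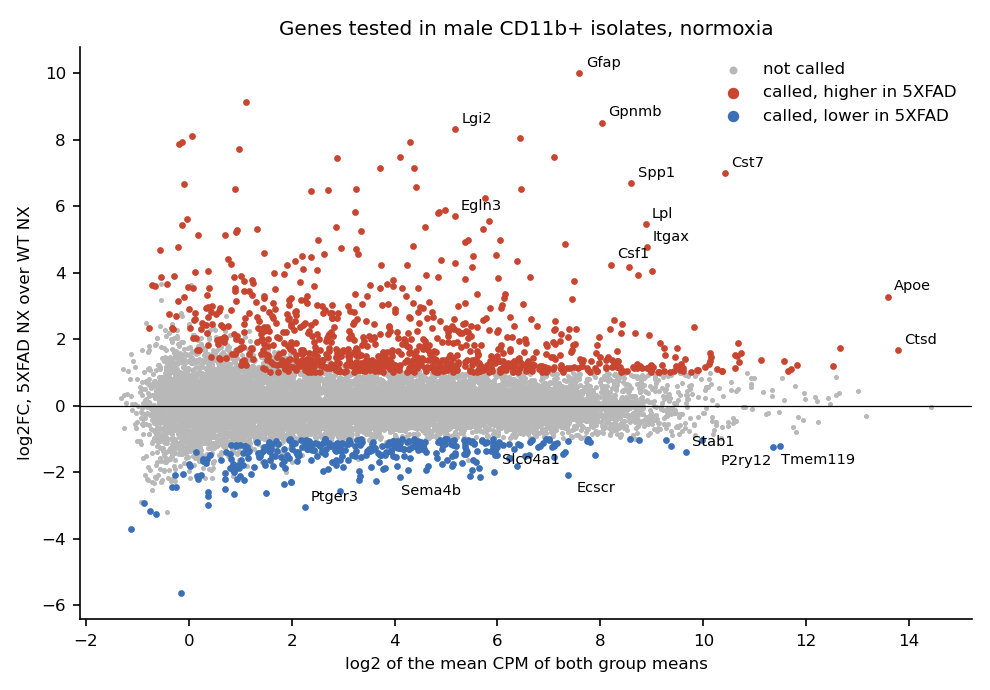
log2FC (5XFAD NX over WT NX) against the log2 of the mean CPM of both groups for the 14834 genes tested, with the 881 called higher in red and the 343 called lower in blue. The rises reach a log2FC of 10.01 for Gfap, while Ptger3, the furthest fall named in the text, lies at -3.04.

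All 33 DAM genes of the list were tested and all were called higher, against 5.94% of the genes tested, with a median log2FC of 2.12 against 0.02 over all genes. All 33 were also called without 5XFAD NX 4 and 5. The list was drawn from knowledge of plaque-associated microglia in mice of this kind, with earlier results of these data known. Its count of calls is therefore not independent evidence of its direction. Cst7 (chromosome 2, 150570415 to 150578944, GRCm38), the gene of the cysteine protease inhibitor cystatin F, was at 17.8, 21.6, 19.5, 21.2 and 26.8 CPM in WT NX 1 to 5 and 3273, 2959.7, 3717, 1852 and 1874 CPM in 5XFAD NX 1 to 5 (log2FC 7.0 ± 0.26, FDR = 2.80e-09). Itgax (chromosome 7, 128129547 to 128150657), the integrin CD11c, was at 33.7, 33.8, 29.7, 31.2 and 41.2 CPM and 851, 867, 1057, 909 and 926 CPM (log2FC 4.76 ± 0.13, FDR = 1.85e-10). The 5XFAD libraries were nearly level in Itgax, whereas libraries 4 and 5 were below 1 to 3 in Cst7.

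The surface receptors of the DAM list rose by unequal amounts. Clec7a, the beta-glucan receptor dectin-1, was at 28.00 to 44.4 CPM in WT NX and 641 to 764 CPM in 5XFAD NX (log2FC 4.16 ± 0.15), and Axl, a receptor for phosphatidylserine bound to its bridging ligand, was at 40.2 to 63.2 and 653 to 978 CPM (log2FC 3.94 ± 0.18). Trem2 (chromosome 17, 48346401 to 48354147) was at 1961, 2048, 1917, 2297 and 2320.1 CPM in WT NX 1 to 5 and 5545, 4880.2, 5826, 2838 and 2632 CPM in 5XFAD NX 1 to 5 (log2FC 1.04 ± 0.21, FDR = 0.00462). The groups did not overlap, but 5XFAD NX 4 and 5 lay just above the highest WT library and far below 1 to 3. The rise of Trem2 stood close to the fold threshold and fell below it when 5XFAD NX 1, 2 or 3 was left out (log2FC 0.94, 0.999 and 0.92), while without 4 and 5 it was 1.36. With library sizes alone it was 0.81. Tyrobp, the signalling adaptor of TREM2, showed the same split, with 3079, 2468, 3295, 1606 and 1476 CPM in 5XFAD NX 1 to 5 and 688 to 1094 CPM in WT NX (log2FC 1.49 ± 0.23).

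The rest of the TREM2 pathway did not move as one. Of its 21 genes, all tested, 4 were called higher (2 without 5XFAD NX 1, 2 or 3) and 1 lower (2 without 5XFAD NX 4 and 5), against 5.94% and 2.31% of all genes tested, with a median log2FC of -0.35. Beside Trem2 and Tyrobp, the paralogous receptor gene Treml2 (14.3 to 16.5 against 51.6 to 71.98 CPM, log2FC 1.92 ± 0.12) and the adaptor gene Hcst (log2FC 1.02 ± 0.27) rose, and the four-span membrane protein gene Ms4a6b fell (77.7 to 89.03 against 30.3 to 41.3 CPM, log2FC -1.14 ± 0.11). The kinase gene Syk (log2FC -0.40 ± 0.12, FDR = 0.0417) and the phospholipase gene Plcg2 (log2FC -0.26 ± 0.10, FDR = 0.0918), which act downstream of the receptor, were not called. Hcst overlapped between the groups and missed the fold threshold without any of 5 libraries (lowest log2FC 0.84).

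The homeostatic list moved the other way. Of 30 genes tested, 7 were called lower against 2.31% of all genes (7 without 5XFAD NX 4 and 5), 1 was called higher, and 19 were lower at an FDR below 0.05 when no fold threshold was set (7.37% of all genes). The median log2FC was -0.59. P2ry12 (chromosome 3, 59216272 to 59262871), the purine receptor that guides microglial processes, was at 4110.2, 3895, 4819, 3754 and 3562 CPM in WT NX 1 to 5 and 1801, 1503, 1594, 1965 and 1786 CPM in 5XFAD NX 1 to 5 (log2FC -1.22 ± 0.12, FDR = 1.60e-05). The 5 5XFAD libraries were close to each other and all below WT. Tmem119, a microglial surface protein gene, was at 3312, 3963, 3401, 3912 and 3832 CPM and 2221, 1523, 1867, 1125 and 962 CPM (log2FC -1.26 ± 0.20, FDR = 8.70e-04). Libraries 4 and 5 were the lowest, and without both the log2FC was -0.98, below the fold threshold. Ecscr, a transmembrane gene also known from endothelium, fell furthest of the list (239 to 294 against 31.6 to 103 CPM, log2FC -2.08 ± 0.24), followed by the crystallin gene Crybb1 (log2FC -1.49 ± 0.32).

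Other homeostatic genes differed by smaller amounts. Cx3cr1, the fractalkine receptor, was at 5053 to 6255 CPM in WT NX and 3633 to 4561 CPM in 5XFAD NX (log2FC -0.50 ± 0.10, FDR = 0.00485), below the fold threshold with no overlap. Sall1, a transcription factor of microglial identity, was at 504, 448, 434, 780.0 and 688 CPM in 5XFAD NX 1 to 5 and 762 to 1119 CPM in WT NX (log2FC -0.77 ± 0.18, FDR = 0.0117). Its value in library 4 lay in the WT range, and without 4 and 5 the log2FC was -1.07, past the fold threshold. The gene of this list called higher was Serpine2, a secreted serine protease inhibitor (522 to 593 against 1434 to 1919.7 CPM, log2FC 1.60 ± 0.11).

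**Figure D3:**
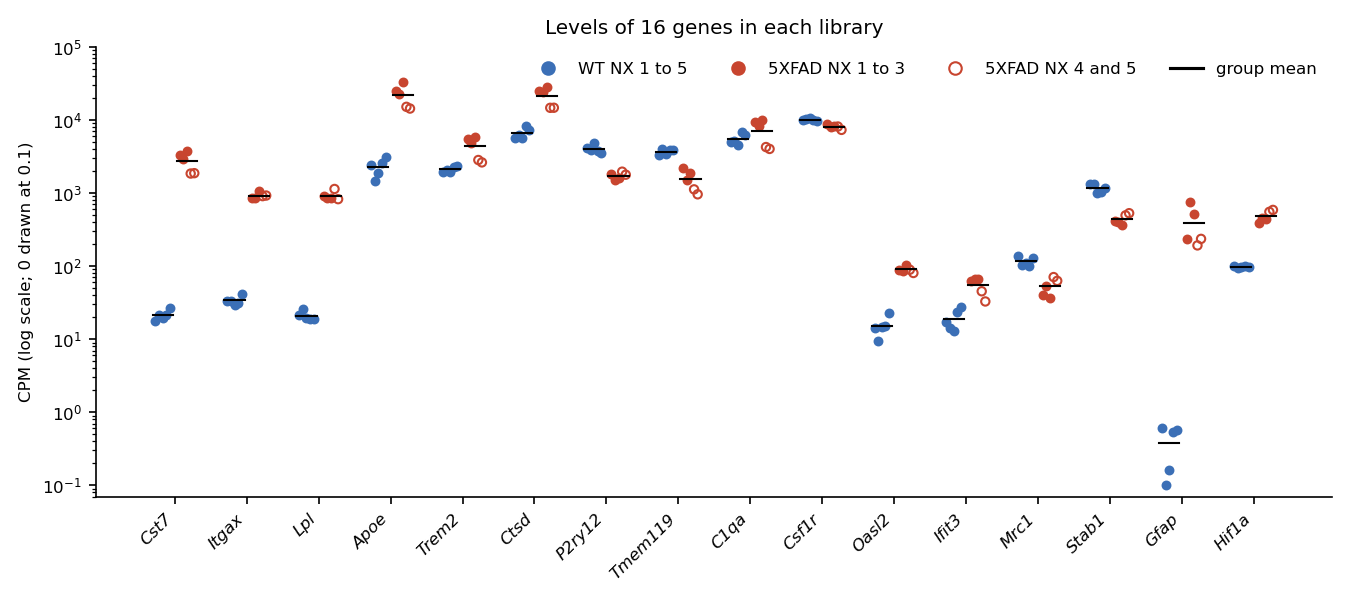
Level in CPM (log axis) of 16 genes in each library, with filled points for WT NX 1 to 5 and 5XFAD NX 1 to 3, open points for 5XFAD NX 4 and 5, and a bar at each group mean. Itgax and Lpl separate the groups with little spread, Trem2 and Ctsd split within 5XFAD NX, and C1qa overlaps between the groups (4493 to 6801 and 4023 to 9989 CPM).

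Lysosomal genes rose in part. Of 44 lysosome genes tested, 12 were called higher and 0 lower (17 and 0 without 5XFAD NX 4 and 5), against 5.94% and 2.31% of all genes tested, and 26 were higher at an FDR below 0.05 alone, against 10.4% of all genes. The median log2FC was 0.64. Ctsd, the aspartic protease cathepsin D, was at 5763, 6289, 5714, 8417 and 7329 CPM in WT NX 1 to 5 and 24949, 24483, 28162, 14704 and 14737 CPM in 5XFAD NX 1 to 5 (log2FC 1.68 ± 0.20, FDR = 9.20e-05). Ctsb, the cysteine protease cathepsin B, was at 2750.1 to 3226 and 8066 to 11476 CPM (log2FC 1.72 ± 0.13). In both, every 5XFAD library was above WT, with 4 and 5 the lowest of the group. The tetraspanin gene Cd63 (log2FC 1.89 ± 0.25) and the glycosidase genes Gusb (log2FC 1.54 ± 0.11), Glb1 (log2FC 1.42 ± 0.12) and Hexa (log2FC 1.33 ± 0.15) rose as well. Lgmn, an asparaginyl endopeptidase gene, went the other way with 4296 to 4721 CPM in WT NX and 2561 to 3919.9 CPM in 5XFAD NX (log2FC -0.43 ± 0.13, FDR = 0.0327), below the fold threshold. Of 19 V-ATPase subunit genes, which acidify the lysosome, 2 were called higher against the same 5.94% (3 without 5XFAD NX 4 and 5). These were Atp6v1a (log2FC 1.23 ± 0.14) and the alternative subunit gene Atp6v0d2 (0 to 0.507 against 17.4 to 32.03 CPM, log2FC 7.14 ± 0.53).

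Lipid handling genes ranged from some of the large rises to falls. Of 33 lipid handling genes tested (of 34 in the list), 11 were called higher and 1 lower (13 and 1 without 5XFAD NX 4 and 5), against 5.94% and 2.31% of all genes tested, and 16 did not pass the FDR. The median log2FC was 0.34, with 0.60 without WT NX 5 and 0.091 where at least 10 counts in every library were asked for. Apoe, the main lipoprotein of glia, was at 2413, 1446, 1892, 2577 and 3126 CPM in WT NX 1 to 5 and 25378, 22949.6, 33463, 15174 and 14367 CPM in 5XFAD NX 1 to 5 (log2FC 3.28 ± 0.27, FDR = 4.27e-06). Lpl, which releases fatty acids from lipoproteins, was at 21.1, 25.6, 19.5, 18.8 and 19.2 CPM and 911, 864, 863, 1139 and 826 CPM (log2FC 5.47 ± 0.15, FDR = 1.85e-10). Neither gene overlapped between groups, and libraries 4 and 5 were the lowest for Apoe but, for Lpl, the highest and the lowest of the group. The fatty acid binding protein gene Fabp5 (0.357 to 2.92 against 110.2 to 245 CPM, log2FC 6.52 ± 0.42), the cholesterol 25-hydroxylase gene Ch25h (0.774 to 4.92 against 68.4 to 146 CPM, log2FC 5.57 ± 0.41) and the lipid droplet coat gene Plin2 (log2FC 1.48 ± 0.16) rose. Apoc4, an apolipoprotein gene, was at 0 in WT NX 1 to 4 and at 1.39 to 7.16 CPM in 5XFAD NX. The cholesterol exporters behaved otherwise, with a log2FC of -0.11 ± 0.24 for Abca1 and -0.01 ± 0.11 for Abcg1, neither called. Without 5XFAD NX 4 and 5 Abca1 had a log2FC of -0.66 (FDR = 6.4e-04), below the fold threshold, and Abcg1 one of 0.08 (FDR = 0.606). The scavenger receptor gene Cd36 fell (12.2 to 25.2 against 5.57 to 9.66 CPM, log2FC -1.26 ± 0.23).

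Sterol and fatty acid synthesis genes shifted upward by smaller folds. Of 26 tested (of 27), 10 were called higher and 0 lower (12 and 0 without 5XFAD NX 4 and 5), against 5.94% and 2.31% of all genes tested, with a median log2FC of 0.98. Scd1, a stearoyl-CoA desaturase, was at 2.08, 3.34, 2.84, 2.48 and 4.92 CPM in WT NX and 16.5, 44.7, 25.7, 18.5 and 26.2 CPM in 5XFAD NX (log2FC 3.07 ± 0.31, FDR = 2.36e-05). Cyp51, a demethylase of the cholesterol route, was at 9.59 to 11.9 and 26.4 to 47.8 CPM (log2FC 1.69 ± 0.17). The groups did not overlap in either gene. Sqle, the squalene epoxidase (log2FC 1.21 ± 0.19), Insig1, the sterol-sensing brake on the pathway (log2FC 1.32 ± 0.21), and Srebf2, its transcription factor (log2FC 1.35 ± 0.12), were also higher, and Hmgcs1 missed the fold threshold (log2FC 0.96 ± 0.12, FDR = 1.23e-04).

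Of 24 secreted factor genes tested, 11 were called higher and 2 lower (12 and 1 without 5XFAD NX 4 and 5), against 5.94% and 2.31% of all genes tested. Spp1, osteopontin, was at 7.75, 4.41, 6.58, 12.6 and 5.89 CPM in WT NX 1 to 5 and 816, 689, 1056, 615 and 673 CPM in 5XFAD NX 1 to 5 (log2FC 6.70 ± 0.30, FDR = 1.91e-08), and Igf1, a growth factor, at 7.23 to 12.7 and 275 to 353 CPM (log2FC 4.86 ± 0.17, FDR = 2.05e-09). Every 5XFAD library was well above WT in both. Wif1, a Wnt antagonist, had no read in any WT library and 1.40 to 3.31 CPM in 5XFAD NX, at least 12.7-fold higher against a floor of 3 counts per WT library. Flt1, a VEGF receptor gene, rose (log2FC 2.21 ± 0.53), but WT NX ranged from 4.00 to 39.1 CPM. The growth factor gene Hbegf (log2FC -1.24 ± 0.32) and Angptl7 (log2FC -1.35 ± 0.18) fell, the first no longer past the FDR threshold without 5XFAD NX 4 and 5 (FDR = 0.0579).

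The phagocytic receptor list split by direction, with 8 of 29 genes tested called higher and 4 lower (9 and 4 without 5XFAD NX 4 and 5), against 5.94% and 2.31% of all genes. Itgax, Clec7a and Axl led the rises, with the lipid-sensing receptor genes Cd300lf (3.46 to 8.46 against 29.8 to 40.7 CPM, log2FC 2.64 ± 0.24) and Cd300lb (log2FC 1.58 ± 0.31) and the collectin Colec12 (log2FC 2.24 ± 0.24). The falls were Timd4 (log2FC -2.09 ± 0.50), Stab1 (log2FC -1.41 ± 0.14), Cd36 and Mrc1, of which Timd4, Stab1 and Mrc1 are also carried by border macrophages. Mertk (log2FC -0.22 ± 0.20) and Msr1 (log2FC 0.34 ± 0.21), engulfment receptors, overlapped between groups. Without 5XFAD NX 4 and 5 Mertk had a log2FC of -0.62 (FDR = 8.58e-04), below the fold threshold, and Msr1 one of 0.27 (FDR = 0.451). Of 17 complement genes tested, Itgax and C3 (6.18 to 15.7 against 20.8 to 38.3 CPM, log2FC 1.31 ± 0.27) were called, and C1qa (4493 to 6801 and 4023 to 9989 CPM, log2FC 0.38 ± 0.25) and C4b (log2FC 0.19 ± 0.26) were not. C1qa had a log2FC of 0.74 without 5XFAD NX 4 and 5 (FDR = 3.15e-04), below the fold threshold, and C4b one of 0.28 (FDR = 0.471).

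The interferon response list had 27 of 45 genes called higher and 0 lower (30 and 0 without 5XFAD NX 4 and 5), against 5.94% of all genes, and 35 were higher at an FDR below 0.05 alone, against 10.4% of all genes. The median log2FC was 1.15, and 1.48 without 4 and 5. Oasl2, an oligoadenylate synthetase-like antiviral protein, was at 14.2, 9.47, 14.5, 15.00 and 22.9 CPM in WT NX 1 to 5 and 89.5, 85.7, 105, 89.3 and 80.6 CPM in 5XFAD NX 1 to 5 (log2FC 2.56 ± 0.20, FDR = 2.25e-06). Ifi27l2a was at 12.5, 10.8, 8.65, 24.8 and 18.02 CPM and 195, 132, 164, 63.1 and 55.3 CPM (log2FC 3.03 ± 0.39, FDR = 1.62e-04). Oasl2 was level over the 5XFAD libraries, while Ifi27l2a was lowest in 4 and 5, still above WT. Oas1a (log2FC 2.67 ± 0.21), Ifit3 (12.96 to 27.4 against 32.8 to 67.6 CPM, log2FC 1.53 ± 0.25), Slfn5 (log2FC 2.26 ± 0.19) and the transcription factor gene Irf7 (log2FC 1.36 ± 0.30) rose. Ifitm3, an entry-blocking membrane protein gene, was called (log2FC 1.43 ± 0.37) with overlap through libraries 4 and 5, and not without WT NX 2 (log2FC 1.36). Isg15, a ubiquitin-like modifier, passed the FDR but not the fold threshold (5.37, 6.37, 4.75, 9.58 and 10.6 CPM in WT NX, 14.8, 13.3, 22.6, 8.99 and 10.2 CPM in 5XFAD NX, log2FC 0.93 ± 0.30, FDR = 0.0463). Its groups overlapped through 5XFAD NX 4 and 5, and without them the log2FC was 1.20 (FDR = 0.00386).

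Interferon response genes are known to carry an interferon-stimulated response element, so the RefSeq promoters (GRCm38.p6, 300 bases, from 250 before to 50 after the start, the first listed for each gene) were searched on both strands for GAAA, 2 bases of any kind and GAAA again. Promoters were matched by symbol for 34 of the 45 interferon genes and for 10457 of 14832 symbols tested. The motif stood in 19 of the 34 (55.9%), in 11 of the 20 matched genes that were called (55%), in 8 of the 14 that were not (57.1%), and in 345 of the 10457 promoters (3.3%). The share was 6.25% over all genes called higher and 4.74% over those called lower. A match is a description of letters and not of a bound site. The following 60-base windows, written along the gene's strand with matches in capitals, show the element nearest to the start in called genes and in Isg15:
Ifit1, chr19:34640779-34640838, plus strand: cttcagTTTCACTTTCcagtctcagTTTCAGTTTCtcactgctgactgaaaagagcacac
Ifit3, chr19:34583382-34583441, plus strand: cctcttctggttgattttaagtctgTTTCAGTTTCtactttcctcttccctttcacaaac
Oas1a, chr5:120907526-120907585, minus strand: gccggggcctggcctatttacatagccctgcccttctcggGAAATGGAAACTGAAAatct
Oas3, chr5:120777700-120777759, minus strand: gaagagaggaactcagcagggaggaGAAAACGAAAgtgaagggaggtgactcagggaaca
Rsad2, chr12:26456538-26456597, minus strand: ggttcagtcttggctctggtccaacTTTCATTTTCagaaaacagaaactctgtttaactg
Bst2, chr8:71537562-71537621, minus strand: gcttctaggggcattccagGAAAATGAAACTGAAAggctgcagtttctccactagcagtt
Isg15, chr4:156200850-156200909, minus strand: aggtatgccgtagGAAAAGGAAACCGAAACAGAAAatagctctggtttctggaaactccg

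Ifit3 and Ifit3b hold the same 60-base window at 2 positions of chromosome 19, and reads of these near-identical genes may have been split between them in the counting. The Ifit1 window holds 2 separate matches, and in Oas1a, Bst2 and Isg15 matches overlap each other. Their levels moved by unequal amounts, with a log2FC of 2.05 ± 0.36 for Ifit1, 2.17 ± 0.50 for Oas3, 2.20 ± 0.40 for Rsad2 and 1.13 ± 0.29 for Bst2. Bst2 overlapped between the groups (89.3, 78.3, 83.2, 135 and 123 CPM in WT NX, 330.4, 253, 286, 129 and 115 CPM in 5XFAD NX), and its log2FC was 0.95 without 5XFAD NX 1.

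Lysosomal genes are known targets of TFEB-type factors through a CLEAR element, and the promoters were searched in the same way for TCACGTG and for its palindromic form with a further A, which contains it. TCACGTG stood in 6 of 34 matched lysosome promoters (17.6%) against 6.01% of the 10457, in 2 of the 10 called genes matched (20%) and in 4 of the 24 others (16.7%). The longer form stood in 2 of the 34 (5.88%) against 1.92%. Among all genes called higher the share of TCACGTG was 5.73%, and among those called lower 6.90%. The windows of the called lysosomal genes with a match, Ctsd and Glb1, are shown for their position close to the start:
Ctsd, chr7:142387892-142387951, minus strand: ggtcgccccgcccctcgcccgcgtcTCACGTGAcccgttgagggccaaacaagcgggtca
Glb1, chr9:114401003-114401062, plus strand: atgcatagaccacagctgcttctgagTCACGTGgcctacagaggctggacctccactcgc

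Antigen presentation genes were read by class. Of 21 MHC class I genes tested, 9 were called higher and 0 lower (11 and 0 without 5XFAD NX 4 and 5), against 5.94% and 2.31% of all genes tested, with a median log2FC of 0.85. H2-D1, a classical heavy chain, was at 611, 618, 649, 719.6 and 864 CPM in WT NX 1 to 5 and 3606, 2827, 3126, 1663 and 1659 CPM in 5XFAD NX 1 to 5 (log2FC 1.90 ± 0.22, FDR = 7.27e-05), and B2m, the light chain, was at 1683 to 2617 and 3209 to 7237 CPM (log2FC 1.22 ± 0.23). Both were above WT in every 5XFAD library, as was the heavy chain gene H2-K1 (log2FC 1.46 ± 0.24). With library sizes alone the log2FC of B2m was 0.99, below the fold threshold. H2-Q6 (log2FC 2.26 ± 0.33) and H2-Q7 (log2FC 2.41 ± 0.37) rose too, though these genes are near copies of each other and their reads may have been divided between them. The difference between the classes was not tested. Of 16 MHC class II genes tested, 2 were called higher, the activation marker Cd83 (137 to 151 against 291 to 415 CPM, log2FC 1.29 ± 0.11) and the invariant chain gene Cd74. Cd74 spread from 319.8 to 929.5 CPM in WT NX and from 663 to 3101 CPM in 5XFAD NX (log2FC 1.27 ± 0.38, FDR = 0.0347), the groups overlapped, and its call was lost when any of 7 libraries was left out (log2FC 0.86 without 5XFAD NX 1). H2-Aa, a class II alpha chain, was not called (log2FC 0.80 ± 0.38, FDR = 0.181) and had a log2FC of 1.18 without 5XFAD NX 4 and 5, when 5 class II genes were called. Ciita, the class II transactivator, had a log2FC of 0.32 ± 0.33.

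Of 33 chemokine and cytokine genes tested, 7 were called higher and 3 lower (8 and 5 without 5XFAD NX 4 and 5), against 5.94% and 2.31% of all genes tested. Ccl3 was at 73.9, 68.8, 88.9, 72.9 and 133 CPM in WT NX 1 to 5 and 704, 640.4, 593, 392 and 299.5 CPM in 5XFAD NX 1 to 5 (log2FC 2.59 ± 0.26, FDR = 2.07e-05), and Ccl4 at 34.98 to 83.96 and 169.5 to 395 CPM (log2FC 2.30 ± 0.25). These chemokine genes did not overlap between the groups. Ccl6 (log2FC 2.12 ± 0.19), Cxcl14 (log2FC 3.30 ± 0.43) and the TNF superfamily ligand gene Tnfsf8 (3.43 to 8.82 against 29.8 to 61.9 CPM, log2FC 3.11 ± 0.29) rose. Ccl7 (log2FC -1.62 ± 0.38), the receptor gene Ccr1 (log2FC -1.33 ± 0.24) and Il6 (log2FC -1.13 ± 0.29) fell, Il6 not past the fold threshold without WT NX 3 (log2FC -0.80). The classical inflammatory cytokine genes Il1b (13.3 to 43.5 and 18.9 to 42.9 CPM, log2FC -0.16 ± 0.31) and Tnf (12.3 to 24.3 and 11.3 to 20.7 CPM, log2FC -0.08 ± 0.24) overlapped between the groups, and Cxcl16 missed the fold threshold (log2FC 0.98 ± 0.15, FDR = 6.42e-04). Of 22 Toll-like receptor pathway genes, a list with a share near the 5.94% of all genes, Tlr2 alone was called (123 to 171 against 271 to 319.8 CPM, log2FC 1.02 ± 0.11), at the edge of the fold threshold, which it missed without WT NX 2 or 5XFAD NX 2 (log2FC 0.96 and 0.99). Of the list, 1 gene was called lower without WT NX 4, 5XFAD NX 4 or 5XFAD NX 5.

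Of 24 glycolysis genes tested, 13 were called higher and 1 lower under 21% oxygen (14 and 0 without 5XFAD NX 4 and 5), against 5.94% and 2.31% of all genes tested, and 8 did not pass the FDR. The median log2FC was 1.02. Pkm, pyruvate kinase, was at 288, 338, 329, 340.3 and 373 CPM in WT NX 1 to 5 and 1205, 1205, 1409, 859 and 868 CPM in 5XFAD NX 1 to 5 (log2FC 1.73 ± 0.15, FDR = 6.81e-06), and Ldha, lactate dehydrogenase, at 125 to 173 and 273 to 489.7 CPM (log2FC 1.37 ± 0.17). The glucose transporter gene Slc2a6 (log2FC 2.48 ± 0.36), Aldoa (log2FC 1.40 ± 0.21) and Pgk1 (log2FC 1.92 ± 0.14) were higher, and the fructose transporter gene Slc2a5, a homeostatic gene, was lower (log2FC -1.03 ± 0.16), though not past the fold threshold without 5XFAD NX 4 (log2FC -0.96), 5 (log2FC -0.93) or both (log2FC -0.82). Of 25 hypoxia response genes tested, 8 were called higher and 0 lower (also 8 and 0 without 5XFAD NX 4 and 5), against 5.94% and 2.31% of all genes tested. Hif1a, the oxygen-sensitive transcription factor subunit, was at 101, 93.6, 98.6, 100.2 and 96.03 CPM and 386, 461, 441, 554 and 589 CPM (log2FC 2.31 ± 0.13, FDR = 1.46e-07), and Egln3, a prolyl hydroxylase that marks HIF for degradation, at 0.304 to 2.03 and 50.6 to 84.4 CPM (log2FC 5.70 ± 0.37). WT NX was level in Hif1a, and 5XFAD NX 4 and 5 were the highest of all libraries. The angiogenic factor gene Vegfa (log2FC 1.74 ± 0.25) and the cytokine gene Mif (log2FC 2.16 ± 0.29) also rose, Pgk1, Ldha and Slc2a1 stood in both lists (Slc2a1 below the fold threshold without any of 4 libraries, lowest log2FC 0.89), and Bnip3, a mitophagy gene, missed the fold threshold (log2FC 0.87 ± 0.16, FDR = 0.00256).

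Smaller groups held a few changed genes each, and counts in them stand against 5.94% of all genes called higher and 2.31% called lower. Among 36 transcription factor genes tested, Bhlhe40 (1.58 to 4.98 against 76.6 to 97.2 CPM, log2FC 4.51 ± 0.26), Arnt2 (log2FC 3.92 ± 0.25), Rxrg (log2FC 2.47 ± 0.29) and Hif1a rose, and Maf (log2FC -1.04 ± 0.10), Nr4a1 (log2FC -1.43 ± 0.19) and Klf2 (log2FC -1.08 ± 0.30) fell, the last not past the fold threshold without 5XFAD NX 4 and 5 (log2FC -0.77) and not called without any of 5 single libraries. Mitf, a lysosomal regulator (log2FC 0.75 ± 0.13, FDR = 0.00116), and Bhlhe41 (log2FC 0.44 ± 0.11, FDR = 0.0113) missed the fold threshold. Of 20 tested genes of a list of purine receptors and other genes, the adenosine receptor gene Adora1 (0.402 to 2.33 against 11.3 to 22.4 CPM, log2FC 3.37 ± 0.37), Gpr65 and Enpp1 rose. P2ry12 and the ion channel gene P2rx1 (log2FC -1.88 ± 0.26) fell, with Adora3 short of the fold threshold (log2FC -0.93 ± 0.17, FDR = 0.00259). Without 5XFAD NX 1, 5 genes of this list were called lower. Among 17 iron genes the ferritin chain genes Fth1 (963 to 1498 against 1792 to 4189 CPM, log2FC 1.38 ± 0.26) and Ftl1 (log2FC 1.08 ± 0.28) rose and the iron exporter gene Slc40a1 fell (171 to 205 against 71.4 to 96.9 CPM, log2FC -1.14 ± 0.12). There were 2 iron genes called lower without 5XFAD NX 5 and 3 without 4 and 5. Ftl1 overlapped between the groups and missed the fold threshold without WT NX 3 or without 5XFAD NX 1, 2 or 3 (lowest log2FC 0.96), and the endosomal metal transporter gene Slc11a1 did not reach it (log2FC 0.67 ± 0.13, FDR = 0.00283). Of 29 antioxidant genes, with 4 called (5 without 5XFAD NX 4 and 5), Prdx4 (log2FC 1.50 ± 0.20), Srxn1, Prdx6 (log2FC 0.99 without 5XFAD NX 2) and the NADPH oxidase subunit gene Cybb (35.03 to 62.9 against 97.8 to 159.7 CPM, log2FC 1.32 ± 0.19) rose, and Prdx1 did not reach the fold threshold (log2FC 0.95 ± 0.20, FDR = 0.00513).

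Cell cycle genes were low, with 6 of 33 called higher and 0 lower (4 and 0 without 5XFAD NX 4 and 5), against 5.94% and 2.31% of all genes tested. Top2a was at 4.71, 4.94, 6.05, 5.42 and 7.66 CPM in WT NX and 12.6, 17.6, 14.2, 18.6 and 17.6 CPM in 5XFAD NX (log2FC 1.48 ± 0.19, FDR = 1.44e-04), and Mki67 at 4.53 to 11.4 and 13.2 to 26.2 CPM (log2FC 1.19 ± 0.26), the latter with a log2FC of 0.95 without 5XFAD NX 4 and 5. The inhibitor genes Cdkn1a (log2FC 1.36 ± 0.21) and Cdkn2a (0 to 0.938 against 2.26 to 6.70 CPM, log2FC 3.77 ± 0.85) rose, as did the mitotic kinase gene Cdk1 (log2FC 1.49 ± 0.34). In this list 24 genes did not pass the FDR. Immediate early genes, which tissue dissociation is known to induce, had 2 of 26 called higher and 4 lower (2 lower without WT NX 5, 6 without WT NX 4, and 1 higher and 4 lower without 5XFAD NX 4 and 5), against 5.94% and 2.31% of all genes tested. Fos (109.6 to 208 and 64.4 to 103 CPM, log2FC -0.95 ± 0.18, FDR = 0.00324) and Jun (256 to 386 and 158 to 236 CPM, log2FC -0.66 ± 0.16, FDR = 0.0125) were lower without reaching the fold threshold, as was Egr1 (log2FC -0.94 ± 0.19, FDR = 0.00347). Egr2 (log2FC 1.65 ± 0.16) and Rgs1 (log2FC 1.04 ± 0.19) rose, and Nr4a1 and Dusp2 (log2FC -1.51 ± 0.39) fell furthest. Rgs1 was not past the fold threshold without 5XFAD NX 4 and 5 (log2FC 0.98) or without any of 3 single libraries (lowest 0.91), nor was Dusp2 past the FDR threshold without WT NX 5 (log2FC -1.35). Of 23 TGF-beta pathway genes, Itgb8 alone was called (log2FC 1.12 ± 0.33), and it was not past the threshold without 5XFAD NX 4 and 5 (log2FC 0.69, FDR = 0.208) or without any of 6 single libraries. The receptor gene Tgfbr1 (log2FC -0.36 ± 0.19), Smad3 (log2FC -0.31 ± 0.13) and Nrros (log2FC -0.27 ± 0.11), which anchors latent TGF-beta on microglia, were not called. Without 5XFAD NX 4 and 5, Tgfbr1 had a log2FC of -0.75 (FDR = 2.95e-05) and Smad3 one of -0.48 (FDR = 0.00194), below the fold threshold. Nrros then had a log2FC of -0.22 (FDR = 0.142). Of 33 axon guidance genes tested (of 40), the semaphorin receptor genes Plxna2 (log2FC 2.79 ± 0.56), Plxnc1 and Nrp1 (74.01 to 97.9 against 180.4 to 383 CPM, log2FC 1.68 ± 0.20) rose and 6 genes fell, Sema4b and Epha2 (log2FC -1.44 ± 0.18) furthest, while Sema4a (log2FC -0.05 ± 0.22) and Plxnd1 (log2FC 0.74 ± 0.26) were not called. The count of 3 was 5 without WT NX 5 and that of 6 was 4 without 5XFAD NX 1, against 5.94% and 2.31% of all genes.

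**Figure D4:**
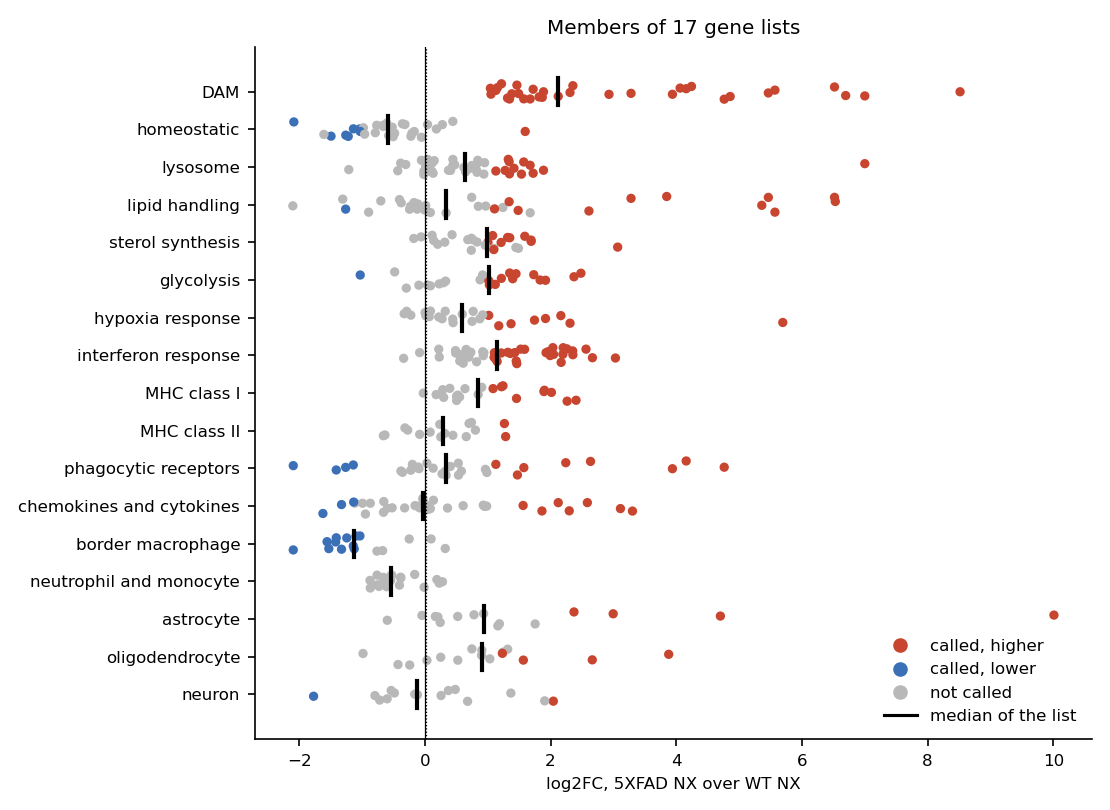
log2FC (5XFAD NX over WT NX) of each tested member of 17 gene lists, with called genes in red (higher) and blue (lower), other genes in grey and a bar at the list's median. The DAM list lies wholly above 1 with a median of 2.12, and the border macrophage list has a median of -1.13.

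Border macrophage markers were lower in part. Of 16 border macrophage genes, 11 were called lower and 0 higher (9 and 0 without 5XFAD NX 4 and 5), against 2.31% of all genes called lower, with a median log2FC of -1.13. Their summed level was 1663 to 2055 CPM in WT NX and 941 to 966 CPM in 5XFAD NX, without overlap. Stab1, whose values follow, held more of this sum in WT NX than the other members together. Mrc1, the mannose receptor, was at 137, 104, 109.7, 102 and 130.0 CPM in WT NX 1 to 5 and 40.6, 53.3, 36.9, 70.9 and 62.9 CPM in 5XFAD NX 1 to 5 (log2FC -1.14 ± 0.18, FDR = 7.89e-04), and Stab1, a scavenger receptor, at 1351, 1318, 1007, 1043 and 1173 CPM and 416, 404, 371, 496 and 531 CPM (log2FC -1.41 ± 0.14, FDR = 1.45e-05). Both were lower in each 5XFAD library than in any WT library. Cd163 (log2FC -1.09 ± 0.25), F13a1 (log2FC -1.03 ± 0.21), Clec10a (log2FC -1.42 ± 0.25), Cd209f (log2FC -1.56 ± 0.31) and Cbr2 (log2FC -1.53 ± 0.27) fell as well, Cd163 missing the fold threshold without WT NX 1 or 5XFAD NX 3 (log2FC -0.88 and -0.99) and F13a1 without any of 4 libraries (log2FC nearest to 0 -0.92). The platelet factor gene Pf4 was called lower with overlap (log2FC -1.12 ± 0.31), and not without 5XFAD NX 4 and 5 (log2FC -0.76) or without any of 4 single libraries. Lyve1 (log2FC -0.76 ± 0.27, FDR = 0.0682), Ms4a7, Folr2, Gas6 and Siglec1 were not called. Microglia also carry some of these transcripts, and the part of cell numbers in these falls was not tested.

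Neutrophil and monocyte markers varied widely between libraries of 1 group. Of 19 genes edgeR called 0, with 1 at an unadjusted p below 0.05, and DESeq2 called 0. Without 5XFAD NX 2, 4 were called lower and the median log2FC of the list went from -0.54 to -1.58. S100a8, an abundant neutrophil transcript, was at 60.5, 46.6, 177, 124 and 296 CPM in WT NX 1 to 5 and 51.8, 349.9, 89.5, 18.2 and 30.7 CPM in 5XFAD NX 1 to 5. WT NX 5 and 5XFAD NX 2 were highest, and 5XFAD NX 4 and 5 lowest, in this gene and in its partner S100a9 (log2FC -0.54 ± 0.71). The monocyte marker Ly6c2 had a log2FC of -0.53 ± 0.52. The monocyte receptor gene Ccr2 had a log2FC of -0.87 ± 0.23 (FDR = 0.0198), and -1.03 without 5XFAD NX 4 and 5. Of all genes tested, 5.94% were called higher and 2.31% lower. Of 12 lymphocyte genes tested (of 22), the T cell gene Cd5 (0 to 0.938 against 12.8 to 27.8 CPM, log2FC 5.25 ± 0.60) and the NK cell gene Klrb1c (log2FC 1.67 ± 0.46) rose and the B cell gene Cd79b fell (log2FC -1.06 ± 0.29). Cd3e and Cd8a did not pass the expression filter, and Cd79a (log2FC 0.21 ± 0.74) and Nkg7 (log2FC 0.79 ± 0.61) overlapped between the groups. Klrb1c lost its call without WT NX 2 or 4 or 5XFAD NX 2 or 3 (lowest log2FC 1.51), and Cd79b without any of 5 libraries (log2FC nearest to 0 -0.87). Of 7 erythroid genes, Hba-a1 (24.8 to 77.7 against 5.44 to 37.3 CPM, log2FC -1.48 ± 0.44) and Hbb-bs (log2FC -1.63 ± 0.49) were called lower, with overlap, and each call was lost without any of 6 libraries (log2FC nearest to 0 -1.31 and -1.29). The heme synthesis gene Alas2 had a log2FC of -1.28 ± 0.57.

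Some transcripts of astrocytes and oligodendrocytes were called higher in 5XFAD NX, where 5.94% of all genes tested were called higher and 2.31% lower. Of 15 astrocyte genes, 4 were called higher (7 without WT NX 5 and 5 without 5XFAD NX 4 and 5), with summed levels of 209 to 302 CPM in WT NX and 474 to 1217 CPM in 5XFAD NX. Beside Gfap these were S100b (0.335 to 1.07 against 9.73 to 37.2 CPM, log2FC 4.70 ± 0.47), the glutamate transporter gene Slc1a2 (1.26 to 17.3 against 43.6 to 114 CPM, log2FC 3.0 ± 0.52) and Aldoc (log2FC 2.37 ± 0.55). The other 11 were not called, and Aqp4 (0.203 to 1.94 and 1.69 to 5.86 CPM, log2FC 1.75 ± 0.58, FDR = 0.0546) and Aldh1l1 (log2FC 0.52 ± 0.44) overlapped between the groups. 5XFAD NX 2 was the highest library for Gfap, S100b, Slc1a2, Aldoc and Aqp4. Of 16 oligodendrocyte genes, 4 were called higher (5 without 5XFAD NX 4 and 5), among them Cspg4 (0 to 9.27 against 43.7 to 69.2 CPM, log2FC 3.88 ± 0.67), Mobp (log2FC 2.66 ± 0.45) and Mbp (47.8 to 86.7 against 131 to 278 CPM, log2FC 1.57 ± 0.23). The summed level was 372 to 624 CPM in WT NX and 546 to 821 CPM in 5XFAD NX. None was called lower. Enpp2, the autotaxin gene, missed the fold threshold (260 ± 104 CPM in WT NX and 132 ± 39.9 CPM in 5XFAD NX, mean ± SD, n = 5, log2FC -0.98 ± 0.29, edgeR FDR = 0.0306). Of the list, 1 gene of the list was called lower without WT NX 1, WT NX 5 or 5XFAD NX 5. Mog (log2FC 0.91 ± 0.56) and Olig2 (log2FC 0.25 ± 0.83) were not called. The neuronal and endothelial lists had 1 call in each direction of 15 and 17 genes tested, too few to set them apart from all genes. Neuronal markers summed to 32.1 to 51.9 CPM and 30.4 to 69.1 CPM, with Map2 called higher (log2FC 2.04 ± 0.53) and Snap25 lower (log2FC -1.77 ± 0.39). Map2 was not called without 5XFAD NX 2 (log2FC 1.54). Syt1 (log2FC -0.48 ± 0.62), Slc17a7 (log2FC 1.91 ± 0.96) and Meg3 (log2FC 0.26 ± 0.51) were not called. Endothelial genes had Flt1 called higher and Pecam1 lower (37.2 to 56.2 against 15.5 to 31.8 CPM, log2FC -1.22 ± 0.20), and Cldn5 (log2FC 0.26 ± 0.64) and Cdh5 (log2FC -0.09 ± 0.36) overlapped between the groups.

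Ribosomal protein genes also split within 5XFAD NX. Of 80 tested, 37 were called higher and 0 lower, against 5.94% and 2.31% of all genes tested. Leaving out single libraries moved the count of 37 from 15 (without 5XFAD NX 3) to 66 (without 5XFAD NX 5), with 23 without WT NX 2, 21 without 5XFAD NX 1 or 2 and 63 without 5XFAD NX 4, and it was 75 without 5XFAD NX 4 and 5 together. Rpl41 was at 216, 366, 388, 491 and 402 CPM in WT NX 1 to 5 and 1369, 1321, 1371, 496 and 547 CPM in 5XFAD NX 1 to 5 (log2FC 1.45 ± 0.31, FDR = 0.00634). Libraries 1 to 3 were far above WT, and 4 and 5 stood just above its highest library. Rpl17 was called next to it (log2FC 1.48 ± 0.34) with library 5 inside the WT range. Of 79 nuclear-encoded oxidative phosphorylation genes, 5 were called higher, a share near the 5.94% of all genes. The count was 3 without WT NX 1, 2 or 3 or 5XFAD NX 1 or 3, 11 without 5XFAD NX 4 or 5, and 20 without 4 and 5 together. Cox6a2, a cytochrome oxidase subunit of muscle, rose most (4.51, 6.02, 3.53, 4.55 and 5.66 CPM in WT NX, 110.2, 126, 100.4, 48.5 and 47.8 CPM in 5XFAD NX, log2FC 4.16 ± 0.31), followed by the complex I subunit gene Ndufa1 (log2FC 1.76 ± 0.32). Of 12 mitochondrially encoded genes 2 were called higher (4 without 4 and 5), mt-Nd3 (log2FC 1.36 ± 0.35) and mt-Nd6 (log2FC 1.02 ± 0.25), both with overlap, and mt-Nd6 missed the fold threshold without any of 5 libraries (lowest log2FC 0.88). The count of mitochondrially encoded genes ran from 1 to 3 when single libraries were left out. Of 38 proteasome genes edgeR called 0, with 1 at an unadjusted p below 0.05, DESeq2 called 0, and the median log2FC was 0.04.

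The same genotype contrast in the males kept under CIH shares no library with the normoxic groups. There 2764 of 14793 genes were DEGs (18.7%), and 889 were DEGs under both conditions in the same direction, 72.6% of the 1224 found under NX and 32.2% of those found under CIH. The DAM list had a median log2FC of 2.12 under NX and 3.01 under CIH, the interferon list 1.15 and 1.36, the homeostatic list -0.59 and -0.37, and the border macrophage list -1.13 and -0.54. The astrocyte list turned from 0.94 to -0.24. The ribosomal protein list (0.98 and 2.03, with 37 and 78 genes called higher) and the nuclear oxidative phosphorylation list (0.41 and 1.29, with 5 and 51) were further from 0 under CIH. Without 5XFAD NX 4 and 5 the NX values were 1.36 with 75 genes called higher for ribosomal proteins. For nuclear oxidative phosphorylation they were 0.76 with 20. Trem2 had a log2FC of 1.04 ± 0.21 under NX and 1.83 ± 0.16 under CIH, a difference of 0.78 ± 0.28 (interaction FDR = 0.128). Its NX value was 1.36 without 5XFAD NX 4 and 5. For P2ry12 the values were -1.22 ± 0.12 and -1.03 ± 0.09, a difference of 0.18 ± 0.14 (FDR = 0.428). Il1b stood at -0.16 ± 0.31 and 1.13 ± 0.25, a difference of 1.28 ± 0.42 (FDR = 0.121).

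The interaction of genotype and treatment was called for 0 of 15813 genes by edgeR's quasi-likelihood test over the 20 male libraries. At an unadjusted p below 0.05 there were 3857 genes (24.4%), and the smallest FDR was 0.117. DESeq2 called 381 genes, edgeR's likelihood ratio test 175, and the quasi-likelihood test 790 without the expression filter and 478 without 5XFAD NX 1. It called 0 when any other male library was left out and 0 without 5XFAD NX 4 and 5, with 1619 genes then at an unadjusted p below 0.05. The genes with the lowest p were Mrgpre, an orphan receptor gene (1.83 ± 0.14 under NX, 2.77 ± 0.14 under CIH), and Capg, an actin-capping protein gene (2.28 ± 0.22 and 3.72 ± 0.18), both with an interaction FDR of 0.117. A p that misses the threshold does not show that the genotype effect was alike under both conditions.

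In the females harvested at 10 months, the NX contrast had 869 DEGs with all libraries (5.99%) and 1880 (13.3%) without 5XFAD NX 4 of that cohort, which stood apart from its group. Without it and over the symbols that both tables list, 859 of the 1224 male DEGs were DEGs in the same direction, 70.2% of them and 53% of the female DEGs among these symbols. The medians in the male and female comparisons were 2.12 and 1.95 for the DAM list, 1.15 and 1.60 for interferon genes, 0.64 and 0.82 for lysosome genes, -0.59 and -0.54 for homeostatic genes and -1.13 and -1.27 for border macrophage genes. For astrocyte genes they were 0.94 and -0.71. Lpl had a log2FC of 5.47 ± 0.15 in males and 3.31 ± 0.56 in females, Spp1 6.70 ± 0.30 and 1.33 ± 1.54, and Gpnmb 8.52 ± 0.41 and 2.62 ± 1.72. The differences between cohorts for these 3 genes were -2.15 ± 0.53, -5.35 ± 1.63 and -5.89 ± 1.90 on the log2 scale (FDR = 0.54, 0.87 and 0.904). Sex, age and sequencing table differ together between the cohorts and cannot be told apart.

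The interaction of genotype and cohort was called for 1 of 14409 shared symbols over 19 libraries (0.00694%), and for 1 of 14160 without the female library (0.00706%). The gene was Rhof, a small GTPase of filopodia, with 1.98, 3.34, 3.21, 3.35 and 3.83 CPM in male WT NX and 7.39, 7.09, 8.01, 4.93 and 3.67 CPM in male 5XFAD NX (log2FC 0.98 ± 0.29), a log2FC of -0.98 ± 0.13 in females and a difference of -1.97 ± 0.29 (FDR = 0.0214). Leaving out single libraries gave counts from 0 to 4 (4 without male WT NX 5), with 0 genes called in 12 of the 19 fits. After Rhof the lowest p belonged to Bloc1s1, which did not pass the expression filter in the male NX libraries alone. It was followed by Cd274 (2.23 ± 0.13 in males, 1.40 ± 0.08 in females, FDR of the difference 0.133), the complement gene C2 (-0.34 ± 0.38 and 1.84 ± 0.23, FDR = 0.211) and Grcc10 (FDR = 0.211). At an unadjusted p below 0.05 there were 465 genes (3.23%), and 641 (4.53%) without the female library.

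**Figure D5:**
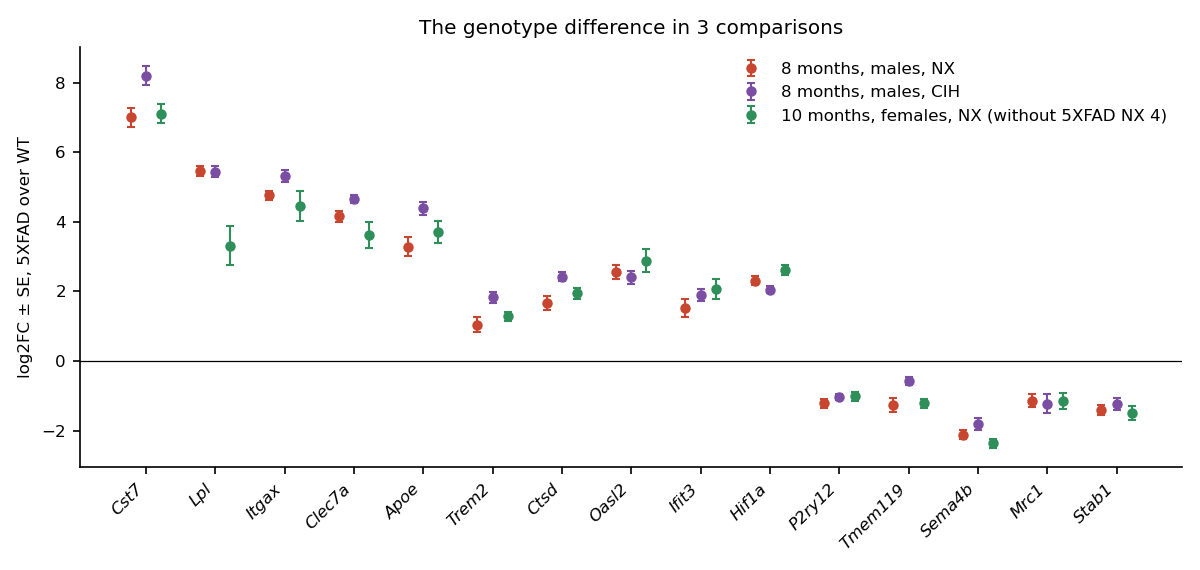
log2FC ± SE (5XFAD over WT) of 15 genes in the males under NX, the males under CIH and the females under NX without their library 5XFAD NX 4. The 10 genes above 0 and the 5 below 0 have the same sign in all 3 comparisons, with Lpl at 5.47, 5.44 and 3.31.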

How the data were processed

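CD11b+ cells of the cerebrum were profiled by mRNA sequencing (NovaSeq, paired reads). Per the labels, the authors aligned reads with HISAT2 (version not given in the sources used here) to GRCm38/mm10 and deposited a raw count per gene and library, which was used here without change. The FPKM values the authors deposited are these counts per gene length and library total, and served only as an alternative. Whether counting used strand is not given, so overlapping and near-identical genes are uncertain. Normalization to library totals and gene filters bear on the levels.

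Groups follow the sample titles. Genes above 1 CPM in at least 3 of the 10 libraries were fitted with edgeR 4.0.16 (TMM scaling, quasi-likelihood F test, R 4.3.3), with Benjamini-Hochberg adjustment over all genes tested. DEGs had an FDR below 0.05 and an absolute log2FC above 1. CPM are on TMM-scaled totals, and errors beside a log2FC are standard errors (log2FC over the root of F). Interactions were fitted over 20 libraries (treatment) and 19 (cohort). DESeq2 1.42.0, limma 3.58.1 and other settings were alternatives. On simulated counts for the 14834 genes, 144 of 200 genes changed by a log2FC of 2 were recovered with 2 false calls. Matching replicate numbers did not pair the samples. Members and gene lists were chosen with earlier results of these data known. Named genes were the 10 largest rises and falls without overlap and with at least 5 CPM in the higher group, the 5 lowest p in each direction and each interaction, the key genes of each list and its 2 furthest called members per direction. Further list members were named after their values were seen. Genes of the transgenes and a few others are not reported here.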

Additional observations from a re-analysis of the deposited data

Results flagged for a closer look

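Among the 223 genes of the text and 5 marker sums, 456 groups of 5 libraries were examined on the log2(CPM + 1) scale for a library far from the other 4, and 12 groups (2.63%) passed Dixon's critical value of 0.71. Chance flags about 1 in 20 groups. In WT NX 1, Insig1 was at 20.7 CPM (13.05 to 14.7 in the others), Pecam1 at 37.2 CPM (52.2 to 56.2) and Rhof at 1.98 CPM (3.21 to 3.83). In WT NX 2, Clec7a was at 28.00 CPM (39.1 to 44.4) and Colec12 at 2.74 CPM (5.62 to 6.23). In WT NX 3, Bhlhe40 was at 1.58 CPM (3.70 to 4.98) and Il6 at 19.6 CPM (7.57 to 9.53). In WT NX 4, Adora1 was at 0.402 CPM (1.62 to 2.33) and mt-Nd3 at 6.56 CPM (1.82 to 2.57), and Apoc4 was seen in WT NX 5 alone of its group (0.172 CPM). In 5XFAD NX 3, Hpse was at 121 CPM (95.1 to 100.2) and Ms4a6b at 30.3 CPM (38.7 to 41.2). None of the 12 lay in 5XFAD NX 1, 2, 4 or 5. The check looks for a single library far from the other 4. It can therefore miss 5XFAD NX 4 and 5, which stood apart as a pair, and does not show that they lay with their group.

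The genotype effect on Rhof differed between the female and the male cohort by -1.97 on the log2 scale (females minus males, without female 5XFAD NX 4, edgeR FDR = 0.0214): the log2FC was 0.98 in males and -0.98 in females. The male groups overlapped (1.98 to 3.83 CPM in WT NX, 3.67 to 8.01 CPM in 5XFAD NX), and the lowest value is that of WT NX 1 given above. Sex, age and sequencing table differ together between the cohorts and cannot be told apart.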

How the results depend on the processing

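The median log2FC of each of the 38 gene lists stayed on its side of 0 under DESeq2, edgeR's likelihood ratio test, no filter and 1 fit over all male groups. With library sizes alone the medians were 1.90 for DAM, -0.80 for homeostatic, -0.53 for TREM2 pathway, 0.44 for lysosome, 0.26 for V-ATPase, 0.78 for sterol, 0.63 for secreted factor, 0.16 for phagocytic receptor, -0.25 for Toll-like receptor, -0.39 for transcription factor, -0.47 for purine, -0.057 for iron, -0.61 for immediate early and -0.48 for microglia identity genes, against -0.16 for all genes, and 601 genes were called lower. That setting ended the calls of 12 named genes, B2m (0.99) and Trem2 (0.81) among them. With at least 10 counts in every library the medians were 1.89 (DAM), 0.091 (lipid), 0.19 (iron) and -0.44 (lymphocyte). With limma on log2(FPKM + 1), which understates changes of low genes, 708 genes were called (514 higher, 194 lower), and medians were 0.70 (sterol), 0.60 (secreted), 0.16 (phagocytic), 0.32 (cell cycle) and -0.91 (border macrophage). This limma setting ended the calls of 32 of the 236 named genes. FDR alone called 2638 genes (1545 higher, 1093 lower). Without 5XFAD NX 4 and 5 together, chosen after seeing the data, 554 were called lower, medians were 1.07 (secreted), 1.48 (interferon), -0.047 (iron), -0.20 (immediate early) and -0.061 (microglia identity), and Malat1 turned to -1.71. Leaving out single libraries gave 1040 to 1283 DEGs (742 to 961 higher, 293 to 356 lower) and medians of 0.24 to 0.60 (lipid), -0.030 to 0.19 (iron), -0.63 to 0.040 (neuron), -0.45 to 0.56 (lymphocyte), -1.58 to -0.20 (neutrophil and monocyte), 0.031 to 0.42 (MHC class II), -0.13 to 0.091 (chemokine and cytokine) and -0.045 to 0.14 (proteasome), with 15 to 66 ribosomal protein genes called higher. With the replicate number as a block 830 genes were called (591 higher, 239 lower), 26 of the 236 named genes lost their call, the neuron median was 0.012, and same-numbered samples did not deviate together (r from -0.306 to -0.00368). The treatment interaction had 381 calls by DESeq2, 175 by the likelihood ratio test, 790 without filter and 0 to 478 with single libraries left out (478 without 5XFAD NX 1). The cohort interaction had 6, 13 and, with library sizes alone, 0 calls, 0 to 4 with single libraries left out (4 without male WT NX 5), and 2 without male 5XFAD NX 4 and 5 and female 5XFAD NX 4. The causes were not tested. At these depths genes under about 1 CPM rest on few reads.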
